A study of Saccharomyces cerevisiae with 2 samples.

Results

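The genes described here encode factors of the yeast spliceosome, the machine that removes introns from pre-mRNA. They were chosen by name alone: annotated open reading frames (ORFs) whose standard name is PRP, SNU, SMD or SMX followed by a number, together with SMB1, SME1, BRR2, MUD1, MUD2, MSL5 and CUS1, present in the tables of both replicates. The rule found 41 genes among 5798 ORFs. It uses no measured value, but it was chosen with earlier results of these data known.

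The samples were 2 biological replicates of 1 Saccharomyces cerevisiae strain, JZY65, which lacks the coding sequence of RPB4 (genotype Δrpb4), a subunit gene of RNA polymerase II. Cells grew at 30 °C in rich medium (YPD) to log phase, and total RNA was sequenced by 3' READS, a method that reads the junction between a transcript and its poly(A) tail, so that a read gives the transcript's last base. The series concerns factors that shape the choice of poly(A) sites. Both replicates form 1 group and no other strain was analysed here, so every value describes the deletion strain, no value is an effect of the deletion, and no test between groups was possible. The comparisons are between replicates and between genes, which are not independent replicates.

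The spliceosome is built from small nuclear RNAs and their proteins, which form the U1, U2, U4/U6 and U5 particles. The U1, U2, U4 and U5 RNAs are each bound by a ring of Sm proteins. U1 and the branch point proteins recognise the ends of the intron, U2 and the U4/U6.U5 tri-snRNP join them, and a series of RNA helicases drives each rearrangement up to release of the mRNA. Few yeast genes have introns, but they include most ribosomal protein genes, so splicing factors are needed in every growing cell. The tail of a yeast mRNA is added at 1 or more positions downstream of the stop codon, often at several close to each other.

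Depth allowed positions to be compared for most of these genes. Over all ORFs, the first 400 nt past the stop codon, called the window, held 27375875 reads in replicate 1 and 24905701 in replicate 2, of which the 41 genes took 86919 (0.318%) and 79935 (0.321%). No read lay inside the RPB4 coding sequence in either replicate, while the window after it held 4486 and 4066 reads. This allows a share inside of up to 0.0669% and 0.0738% of that gene's reads. At least 100 window reads in each replicate were required, and 37 of the 41 genes had them, against 85.2% of all ORFs. PRP6, PRP18, PRP38 and PRP39 did not, and are described apart. PCR copies could not be told from separate molecules, so intervals and limits cover counting error only.

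The typical 3' end of these mRNAs lay a little over 100 nt after the stop codon. The mean endpoint, which is the read-weighted mean position of a gene's poly(A) sites in nt after the stop codon, had a median of 109.8 nt over the 37 genes (111.8 nt in replicate 1 and 110.0 nt in replicate 2, SD 1.23, n = 2). A median given ahead of its 2 replicate values is taken over each gene's mean of the replicates. It can lie outside those 2 values, to which the SD belongs. Over all 4939 ORFs with enough reads the median endpoint was 122.8 nt (122.3 and 123.6 nt). Beyond that genome median lay 14 of the 37 genes, against 50% of all ORFs by construction. Mean endpoints ran from 48.3 nt for CUS1 to 301.1 nt for PRP11. Below 80 nt in both replicates were 10 genes (CUS1, PRP4, PRP5, PRP19, PRP22, PRP46, SMX2, SMX3, SNU13 and SNU56), against 15.4% of all ORFs. Beyond 200 nt in both replicates were 5 genes (PRP11, SMD1, SMD2, SME1 and SNU71), against 15.5%.

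**Figure D1:**
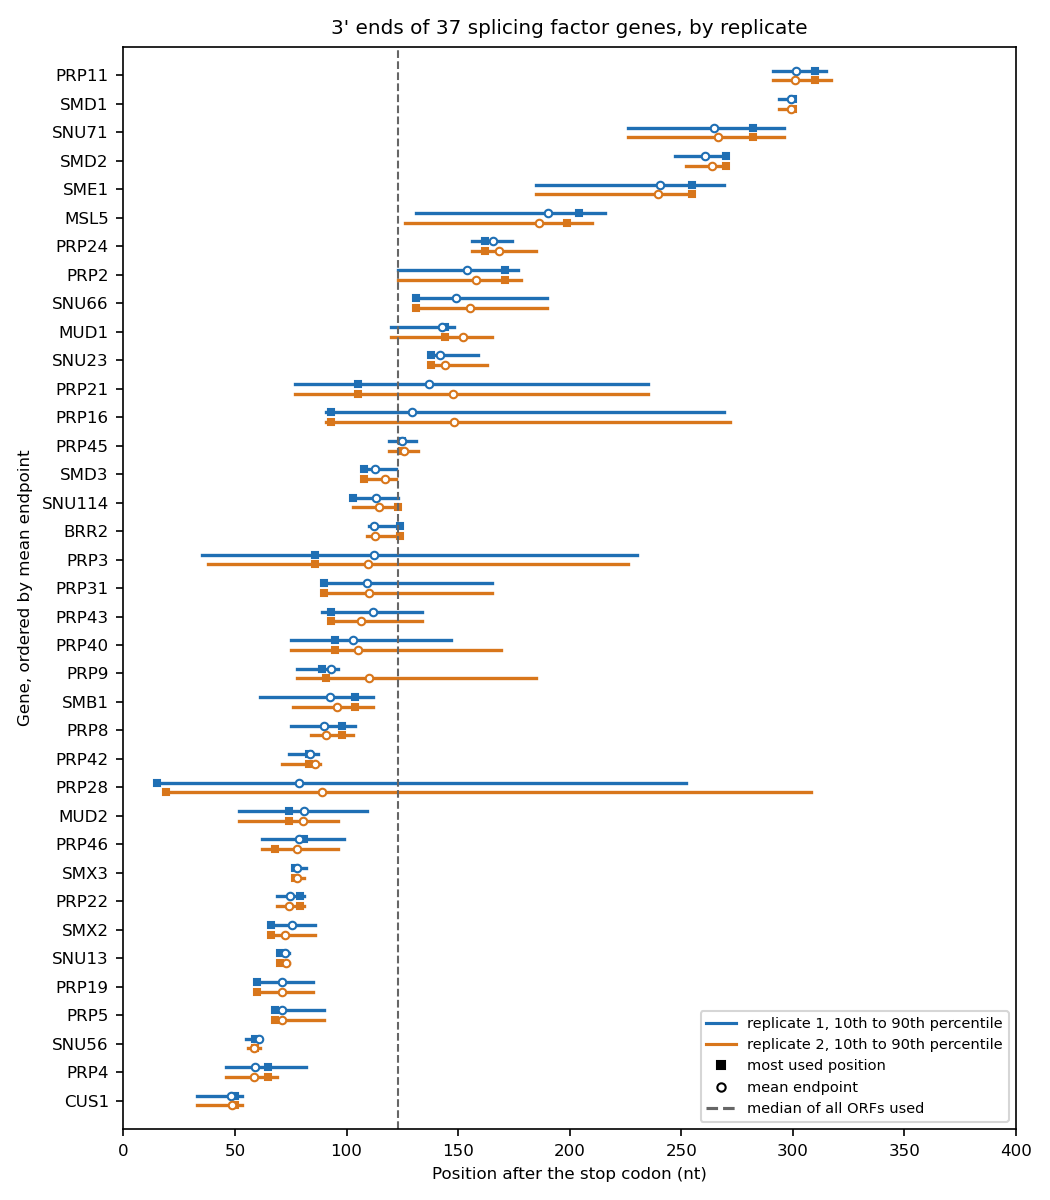
Position after the stop codon (nt) of the 3' ends of 37 splicing factor genes, ordered by mean endpoint, with a line from the 10th to the 90th percentile of reads, a square at the most used position and an open circle at the mean endpoint for each replicate; the dashed line is the median of all ORFs used (122.8 nt). PRP11 at 301.1 nt and CUS1 at 48.3 nt mark the ends of the range, and 5 genes lie beyond 200 nt.

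Members of the same particle did not end at the same distance. The Sm proteins form a ring of 7 different subunits around the Sm site of the U1, U2, U4 and U5 RNAs, and the endpoints of their genes split widely. SMX2 (SmG) ended at 75.5 nt in replicate 1 and 72.6 nt in replicate 2. SMX3 (SmF) ended at 77.8 and 77.7 nt, SMB1 (SmB) at 92.5 and 95.7 nt, and SMD3 at 112.7 and 117.0 nt. The genes of the other three subunits ended far downstream, SME1 (SmE) at 240.3 and 239.6 nt, SMD2 at 260.6 and 264.0 nt, and SMD1 at 299.1 and 299.0 nt. No Sm gene had a mean endpoint between 117.0 and 239.6 nt in either replicate, a gap many times the largest SD between replicates among them, 3.04 nt for SMD3.

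SMD1 (YGR074W, chromosome VII, 635712 to 636152, plus strand) overlaps another of the 41 genes. Its coding sequence and that of PRP38 (YGR075C, chromosome VII, 636147 to 636875, minus strand) run towards each other and share 6 nt. SMD1 put 75.5% of 1325 window reads in replicate 1 and 72.1% of 1218 in replicate 2 on a single position, 300 nt after its stop codon. By the coordinates its whole window lies opposite the PRP38 coding sequence, so all its window reads do, wherever they fall. The window of PRP38, of tri-snRNP activation, likewise lies wholly opposite the SMD1 coding sequence. It held 32 and 18 reads, with the most used position at 156 nt in replicate 1 and 165 nt in replicate 2. These 2 small profiles shared no position, and at this depth no endpoint of PRP38 can be given.

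U1 recognises the 5' splice site, and its protein genes also differed in length. SNU56 had the shortest endpoint of them, 60.7 and 58.6 nt, and 97.7% and 99.7% of its reads lay within 10 nt of position 59. PRP42 followed with 83.8 and 86.0 nt and PRP40 with 102.8 and 105.2 nt. MUD1, the yeast relative of human U1-A, ended at 142.8 and 152.3 nt on 283 and 208 reads. SNU71 had the longest, 264.8 and 266.3 nt, from a group of positions around 282 nt (42.9% and 47.7% of reads) and another around 226 nt (33.3% and 30.5%). PRP39 had 139 and 92 window reads, below the minimum in replicate 2. Its most used positions, 165 and 68 nt, lay far apart, and its ends were not resolved at this depth.

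The branch point is bound first by Msl5 and Mud2, which act as a pair. MUD2 ended at 81.0 and 80.7 nt. MSL5 ended at 190.4 and 186.0 nt and was among the most dispersed of all these genes. Proteins of the U2 particle then take over. CUS1 (YMR240C, chromosome XIII, 749930 to 751240, minus strand), of the SF3b part, had the shortest endpoint of all 37 genes, 48.2 and 48.5 nt, on 2324 and 1649 reads. Among genes of the SF3a part, PRP9 ended at 93.0 and 110.0 nt, PRP21 at 136.9 and 147.7 nt and PRP11 at 301.4 and 300.8 nt. PRP11 (YDL043C, chromosome IV, 375680 to 376480, minus strand) had its most used position at 310 nt, with 57.5% and 51.6% of its reads, and was the 1 gene of the 37 with over 10% of window reads beyond 300 nt in both replicates (8.58% of all ORFs).

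**Figure D2:**
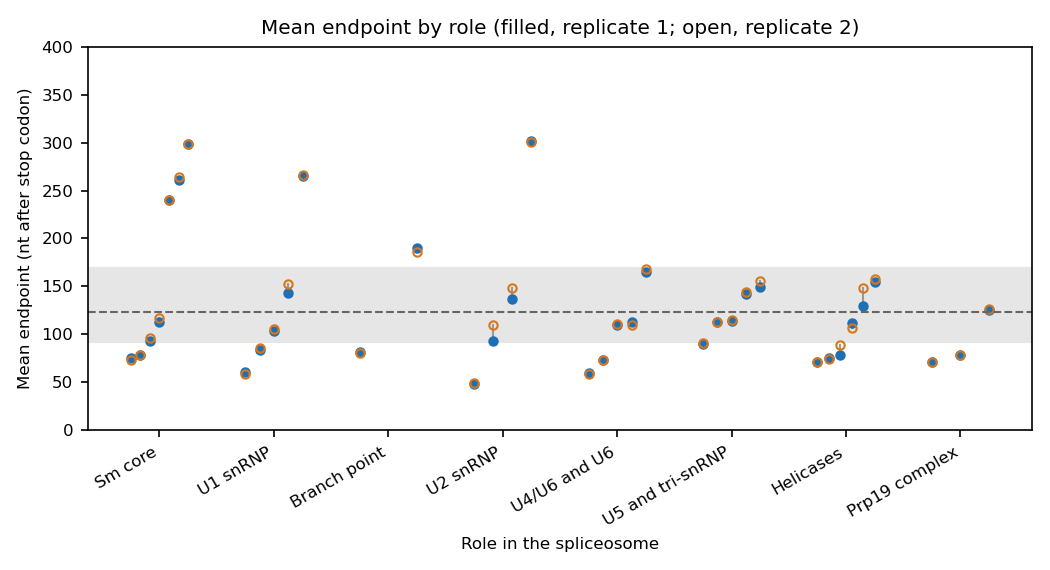
Mean endpoint (nt after the stop codon) of each of the 37 genes by role in the spliceosome, filled for replicate 1 and open for replicate 2, with the middle 50% of all ORFs used shaded (91.5 to 169.5 nt) and their median dashed (122.8 nt). The Sm core spans 74.1 to 299.1 nt, and U5 and tri-snRNP genes span 90.3 to 152.2 nt.

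Genes of the U4/U6 particle and of U6 alone ran from PRP4, at 58.9 and 58.3 nt, to PRP24, at 165.4 and 168.2 nt, which encodes the factor that anneals U4 with U6. SNU13, whose protein binds U4 RNA and also box C/D snoRNAs, ended at 72.6 and 72.7 nt. PRP31 ended at 109.4 and 110.1 nt and PRP3 at 112.5 and 109.7 nt. The 5 U5 and tri-snRNP genes with enough reads lay nearer to each other than those of U4/U6 and U6. PRP6 and PRP38, of the same group, had too few reads. PRP8, of the protein at the catalytic centre, ended at 89.7 and 90.8 nt, BRR2, of the helicase that unwinds U4 from U6, at 112.5 and 112.6 nt, and SNU114, of a GTPase, at 113.2 and 114.5 nt. SNU23 ended at 141.9 and 144.3 nt and SNU66 at 149.1 and 155.3 nt. No neighbours in the order from PRP8 to SNU66 swapped places between replicates.

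The helicases Prp5, Prp28, Prp2, Prp16, Prp22 and Prp43 act in that order along the splicing cycle. Among their genes PRP5 had the shortest mean endpoint, 70.9 and 71.1 nt, and PRP2 the longest, 154.0 and 158.1 nt. Over both replicates it was 83.9 nt for PRP28, 138.7 nt for PRP16, 74.4 nt for PRP22 and 109.1 nt for PRP43. In the complex of the ubiquitin ligase Prp19, PRP19 ended at 71.2 and 70.9 nt, PRP46 at 78.5 and 77.7 nt and PRP45 at 124.9 and 125.8 nt. PRP18, of the second step of splicing, had 10 and 24 window reads, most often at 187 and 76 nt, too few for an endpoint.

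Splicing genes outside the naming rule had a longer median. A list of 57 other splicing genes was written from general knowledge, with earlier results of these data known. It had 49 genes with enough reads. Their median endpoint was 128.2 nt (128.3 and 131.1 nt), with 30 of 49 beyond the genome median. Its shortest members with enough reads were SNP1, of U1 (37.3 and 46.7 nt), and SYF1, of the Prp19 complex (41.2 and 43.0 nt). The longest were HSH49, of SF3b (349.1 and 353.2 nt), and BUD31 (387.0 and 387.3 nt), both near the end of the window, which limits their values. The difference between the lists was not tested.

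Next, the number of sites was described. The most used position took a median of 37.1% of a gene's window reads over the 37 genes (36.5% and 39.4%, SD 2.04, n = 2), against 33.7% over all ORFs used. The effective number of positions (exp of the profile's Shannon entropy, which equals the number of positions when all are used equally) had a median of 7.64 (7.09 and 7.52), against 8.46. More than 50% of reads lay on a single position in both replicates for 8 genes, against 16.4% of all ORFs. These were SMX3, SMD1, SNU23, SNU13, PRP5, PRP11, SNU56 and MUD1.

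SMX3 (YPR182W, chromosome XVI, 900194 to 900454, plus strand) was the most concentrated, with 78.2% of 4646 reads and 78.7% of 4958 reads at 77 nt. Positions within 10 nt of this summit held 98.2% and 98.3%. SMD1, at 300 nt, came next, followed by SNU23, with 75.3% of 247 reads and 67.9% of 193 reads at 138 nt. SNU13 put 63.0% and 59.9% at 70 nt, and PRP5 56.3% and 55.5% at 68 nt, with a second group of positions around 90 nt that held 22.3% and 21.3%. Short and long endpoints were both found among these concentrated genes.

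MSL5 had the lowest leading share, 14.6% at 204 nt in replicate 1 and 18.3% at 199 nt in replicate 2, and an effective number of 20.4 and 18.7. PRP3 was as dispersed, with 20.03 and 19.6 effective positions and 24.1% and 23.8% of reads at 86 nt, and its middle 80% of reads spanned 195 and 188 nt. These were the 2 genes with over 15 effective positions in both replicates, against 9.23% of all ORFs. The window reads of PRP21 fell in 4 groups of positions in both replicates, around 77, 105, 147 and 235 nt, each with between 16.7% and 31.9%. The group around 235 nt lies past the border of ECM25, on the same strand, and cannot be assigned to PRP21. The leading position of PRP21 took 24.4% and 20.7%. The 2 main groups of PRP4 were of nearly equal size, around 65 nt (43.3% and 45.9%) and 46 nt (40.1% and 41.3%), and its leading position took 22.3% and 21.3%. PRP28 led with 16.8% and 22.7%.

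Groups were taken in turn around the highest remaining position, each with all remaining positions within 10 nt of it. What is left of a broad stretch of sites can count as another group, so adjoining groups need not be separate. Counting groups with at least 10% of window reads gave 1 group in 10 genes, 2 in 17, 3 in 5 and 4 in 5 in replicate 1. Replicate 2 gave 11, 15, 10 and 1 genes. Of all 4939 ORFs used, 1219 had 1 group in replicate 1 and 1186 in replicate 2. The count was the same in both replicates for 24 of 37 genes, counted over these genes only. A single group in both replicates was found for 8 genes (CUS1, PRP11, PRP22, PRP45, SMD1, SMX3, SNU13 and SNU56), against 20.3% of all ORFs.

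**Figure D3:**
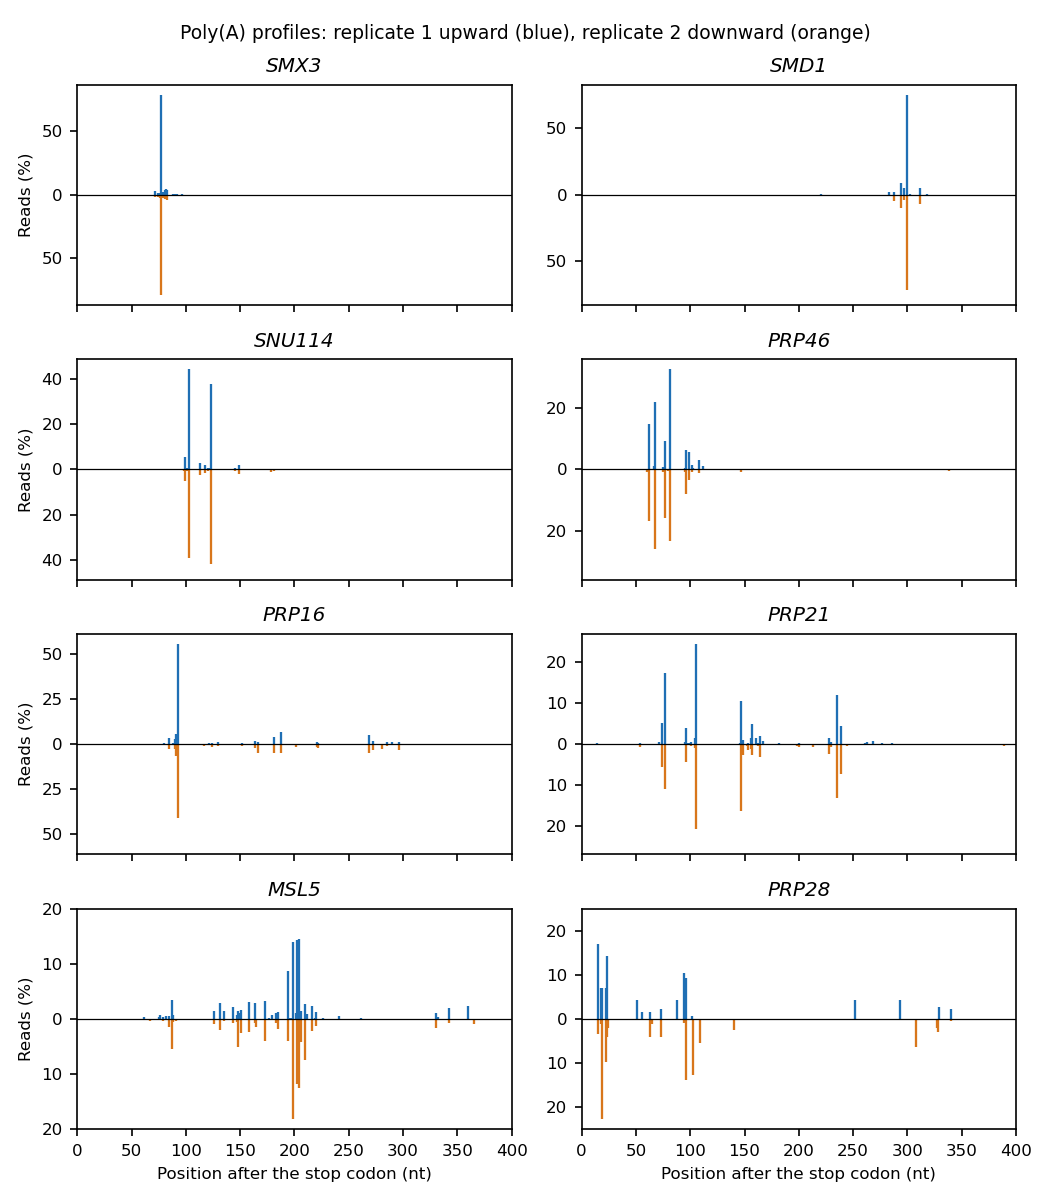
Share of window reads (%) at each position after the stop codon (nt) in 8 genes, with replicate 1 upward in blue and replicate 2 downward in orange. SMX3 and SMD1 put most reads on 1 position (77 and 300 nt), and SNU114 and PRP46 divide them among positions whose order changes. PRP21 and PRP16 also have reads further downstream, and MSL5 and PRP28 are dispersed.

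The replicates gave the same most used position for 32 of 37 genes, against 83.8% of all ORFs. The other 5 led at positions 20 nt apart or less. SNU114 used 2 sites of nearly equal weight, and the site that led changed. Position 103 nt held 44.3% of reads in replicate 1 and 39.3% in replicate 2. Position 123 nt held 38.0% and 42.0%. PRP46 led at 81 nt in replicate 1 and at 68 nt in replicate 2. PRP28 led at 15 and 19 nt, PRP9 at 89 and 91 nt, and MSL5 at 204 and 199 nt. None of the 37 genes had leading positions over 20 nt apart, against 6.32% of all ORFs.

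Mean endpoints moved little between replicates, with a median difference of 2.07 nt over the 37 genes and 2.03 nt over all ORFs used. The difference was under 5 nt in 30 of 37 genes, counted over these genes only. None moved over 20 nt (2% of all ORFs). The endpoint lay further downstream in replicate 2 for 23 genes, against 59.1%. The difference exceeded 10 nt in 4 genes, against 9.6%. PRP16 moved most, from 129.3 to 148.1 nt on 1840 and 1703 reads. Its leading site at 93 nt was the same in both replicates, but the group around it held 68.7% of reads in replicate 1 and 53.1% in replicate 2, and the rest lay downstream. PRP9 moved from 93.0 to 110.0 nt, and its 90th percentile of reads from 96 to 185 nt, on 460 and 567 reads. PRP21 moved from 136.9 to 147.7 nt. The groups around 147 and 235 nt, the latter past the border of ECM25, held 18.7% and 18.6% of its window reads in replicate 1. They held 24.8% and 23.8% in replicate 2. PRP28 moved from 78.7 to 89.1 nt on 184 and 238 reads, and MUD1, the next largest, by 9.44 nt. The profiles of the 2 replicates of PRP28 shared 37.3% of their reads by position, the lowest value of the 37 genes, and those of SMX3 96.3%, the highest.

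Read depth varied widely. Since 3' READS counts transcript ends, window reads were not divided by gene length. SNU13 was read most deeply, with 15501 and 11417 window reads, at percentiles 93.5 and 91.2 of all ORFs used. PRP5 had 11533 and 10743 reads, PRP4 8671 and 7881, and SNU114 8297 and 7884. The fewest were found for PRP18 (10 and 24), PRP38 (32 and 18) and PRP6 (31 and 52). The median over the 37 genes was 1325 and 1176 reads, against 1402 and 1366 over all ORFs used. Subunits of the same particle were not equally deep: among Sm genes, SMX3 had 4646 and 4958 reads and SMD2 had 481 and 426.

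Many of these genes had 3' ends inside a neighbour. For 19 of the 37 the nearest downstream feature runs the opposite way and has its border between 0 and 400 nt past the stop codon. In 11 of these 19 genes over 50% of window reads lay beyond the border of that convergent neighbour in both replicates, against 21.8% of 2291 such ORFs. Reads past this border are counted as inside the neighbour, wherever that feature ends. The median share over the 19 genes was 61.5% in replicate 1 and 61.0% in replicate 2, and over the 2291 ORFs 3.61% and 3.87%. The gap to the neighbour was shorter for these genes, with a median of 111 nt against 189 nt, so gap and gene group move together. Within gaps of 0 to 100 nt, 4 of 7 splicing factor genes and 71.1% of 318 ORFs had over 50% of reads in the neighbour. Between 100 and 200 nt it was 6 of 8 and 23.9% of 891 ORFs, and between 200 and 400 nt 1 of 4 and 5.55% of 1082. In the same order, the median gaps were 75, 124 and 251 nt for the splicing factor genes and 71, 148 and 276 nt for all ORFs. Gaps therefore still differed within each range, and the differences between the groups were not tested.

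The share inside the neighbour differed between genes at like gaps. SNU23 lies 136 nt from BUG1 and had 100% of its window reads inside it in both replicates, and PRP45, 107 nt from POP5, had 99.7% and 100%. SME1 lies 161 nt from PET123, and 97.4% and 96.3% of its window reads lay inside that gene. SMD2 lies 245 nt from DBP9, with 95.6% and 97.4%. SMX2 lies 50 nt from GNA1, with 98.9% and 100%, while PRP4, 67 nt from HDA3, had 17.8% and 14.4%, and PRP42, 97 nt from FMN1, had 3.68% and 8.44%. SNU13 lies 257 nt from YEL025C, with 0% in both replicates. SMD1, which overlaps PRP38, is outside this count.

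**Figure D4:**
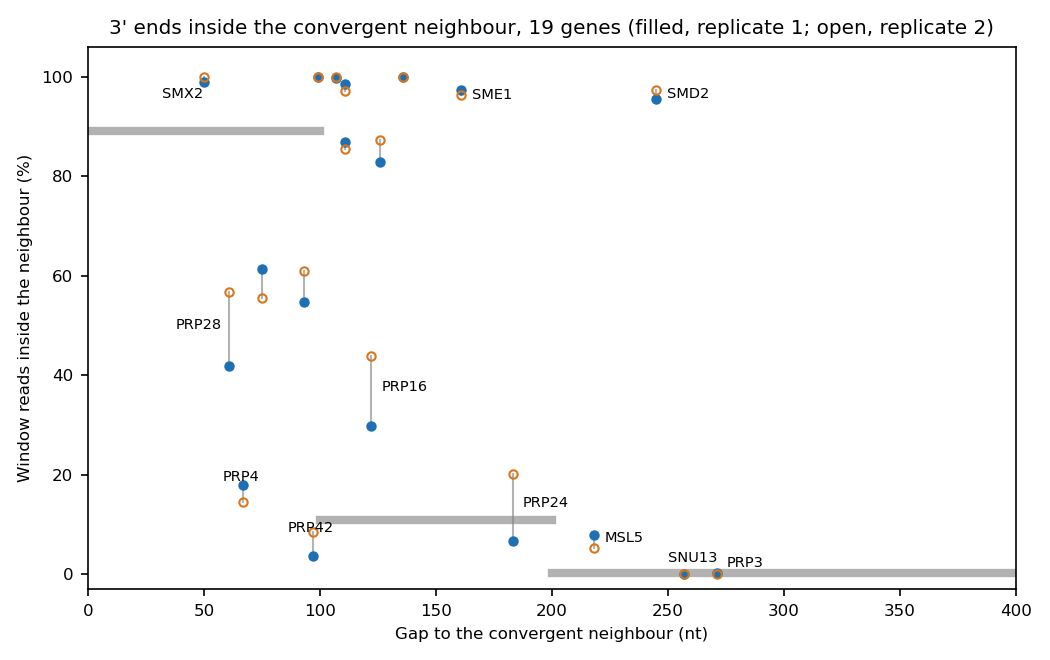
Share of window reads (%) inside the convergent neighbour against the gap to it (nt) for 19 splicing factor genes, filled for replicate 1 and open for replicate 2; grey bars are the mean of the replicates' median shares over all such ORFs in gaps of 0 to 100, 100 to 200 and 200 to 400 nt. SMD2 (95.6% and 97.4%) and SME1 lie far above the grey bar of their gap, and PRP42 and PRP4 below theirs. Inside means past the near border of the neighbour.

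Where the downstream neighbour runs the same way, few reads entered it. Of 11 genes with such a neighbour within 400 nt, PRP21 alone had over 10% of window reads past the border in both replicates (21.1% and 26.7% inside ECM25, 195 nt away), against 7.72% of all such ORFs. Reads there, which enter the mean endpoint and site groups of PRP21, cannot be assigned to PRP21 or to a transcript of ECM25. A feature on the same strand lay in the window of 11 of the 37 genes, against 23.8% of all ORFs: CUS1, MUD2, PRP9, PRP11, PRP19, PRP21, PRP22, PRP31, SMX3, SNU56 and SNU114.

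Reads inside the coding sequence were the last measure. The origin of reads inside coding sequences was not tested. At least 100 reads in ORF and window together were found for 39 of the 41 genes in each replicate, and their median share inside the ORF was 1.81% and 1.25%, against 1.21% and 1.19% over 5052 ORFs. Over 10% in both replicates was found in 6 genes, against 14.8% of all ORFs, and over 50% in 2 genes, against 2.99%. The 6 were PRP8, PRP2, PRP16, PRP22, BRR2 and PRP38, and 5 of them are among the 8 with an ORF over 2000 nt. Of all ORFs over 2000 nt, 28.1% of 1218 passed 10%.

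PRP8 (YHR165C, chromosome VIII, 429707 to 436948, minus strand) had more reads inside its coding sequence than after it. In replicate 1, 4794 reads lay inside, 69.8% of its reads (Wilson 95% interval 68.7 to 70.9), against 2074 in the window. In replicate 2 the numbers were 3809, 65.0% (63.7 to 66.2), and 2053. They came from 75 positions in replicate 1, of which 50 had more than 5 reads in the deposited unit, and 45 had in replicate 2. Per kb of ORF this was 662 and 526 reads, at percentiles 98.2 and 97.8 of 5052 ORFs, where the median was 16.2 in both replicates. BRR2, with a coding sequence nearly as long, had 48.4 and 48.98 reads per kb and 11.7% (10.5 to 12.9) and 10.8% (9.73 to 12.0) of its reads inside. No other annotated feature on the same strand overlaps PRP8, and the window of CDC23, 221 nt upstream, placed 0 and 2 reads in its first 179 nt.

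PRP2 (YNR011C, chromosome XIV, 644320 to 646950, minus strand) had 533 of its reads inside the ORF in replicate 1, 49.4% (46.4 to 52.4), and 510 in replicate 2, 52.6% (49.4 to 55.7). PRP16 followed with 13.7% in both replicates and PRP22 with 12.0% and 12.4%. PRP6 and PRP18 had under 100 reads in at least 1 replicate. PRP6 had 63 reads inside and 31 after the ORF in replicate 1, and 55 and 52 in replicate 2. PRP18 had 45 inside and 10 after, and 29 and 24. Shares inside the ORF of the Sm genes ran from 0% to 0.898% in replicate 1 and from 0% to 3.40% in replicate 2, where SMD2 had 15 such reads. SMX3 had 0 of 4646 and 0 of 4958 reads inside, which allows up to 0.0646% and 0.0605%.

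For PRP38 and MUD1 most of these reads lay within 400 nt after the end of an upstream gene on the same strand. PRP38 had 331 and 242 reads inside its ORF, 91.2% (87.8 to 93.7) and 93.1% (89.3 to 95.6). Of these, 264 and 223 lay in the window of MRPL25, a mitochondrial ribosomal protein gene 228 nt upstream, that is in the first 172 nt of PRP38, and 67 and 19 lay further inside. All 30 and 7 reads inside MUD1 lay in the window of TEF2, of translation elongation factor 1 alpha, 290 nt upstream. Transcripts of the upstream gene and of the gene itself cannot be told apart in these reads.

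**Figure D5:**
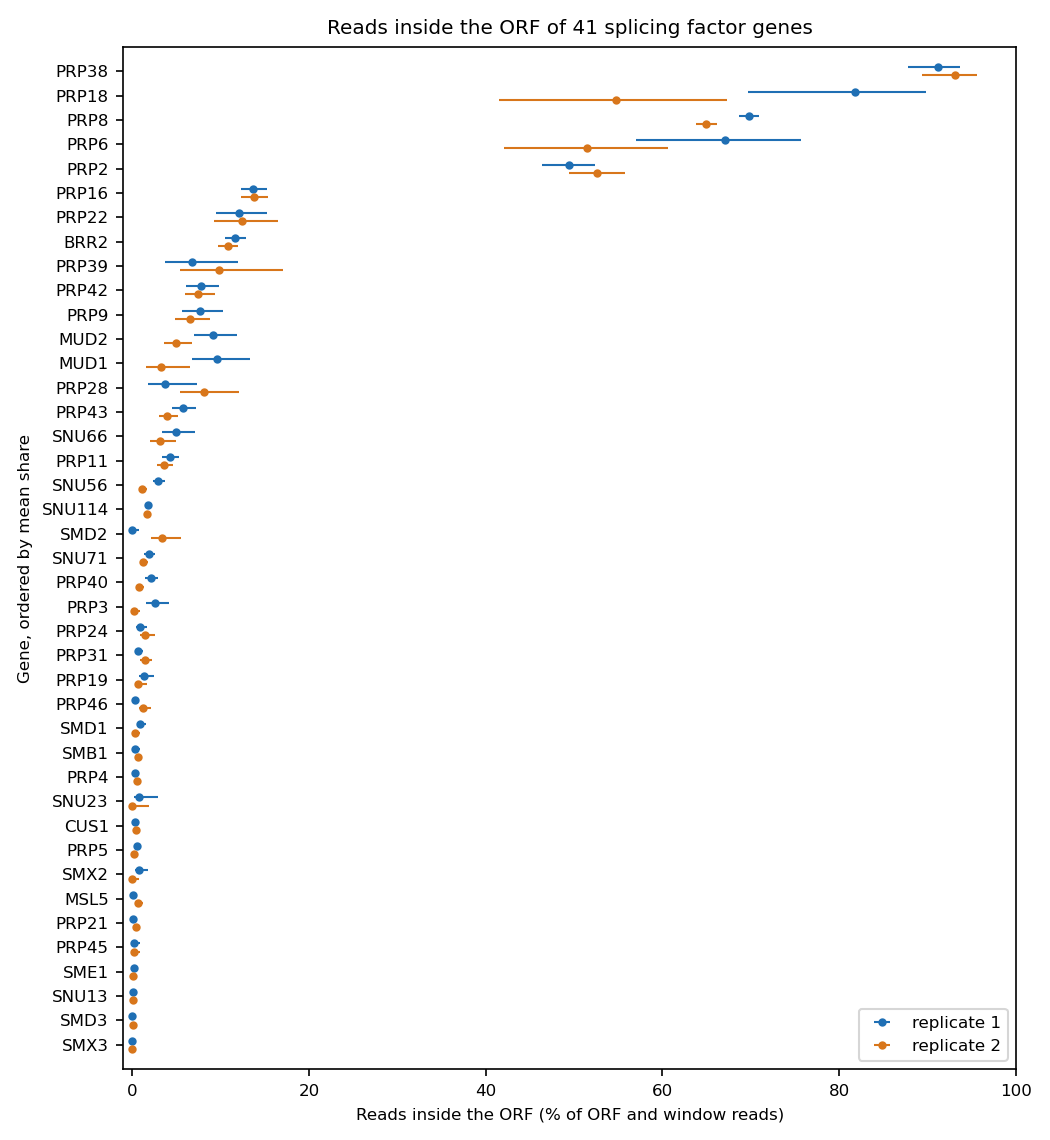
Reads inside the ORF as a percentage of ORF and window reads for all 41 splicing factor genes, by replicate, with Wilson 95% intervals. PRP38, PRP18, PRP8, PRP6 and PRP2 stand above the others, from 49.4% to 93.1%, and the next gene, PRP16, lies at 13.7%.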

How the data were processed

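The 2 replicates of total RNA were profiled by 3' READS. The submitters' processing notes list Bowtie; its settings, the build and the treatment of reads with several matches were not stated in the labels or headers. Per the file headers, the authors deposited for each feature the reads inside it, those 1 to 400 nt past its end, and those at its highest position. Each such deposited signal value is a read number multiplied by a factor common to the library (0.858 in replicate 1, 0.940 in replicate 2), found from the steps between values. Profiles over the 400 positions are deposited as percent of the highest position, per the file headers. A pooled table was not used.

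Division by the factor gave reads. For genes with under 2000 reads at the highest position, 99.998% and 99.995% of position values came out whole to within 0.1, and 99.8% of totals in both replicates. With 1 group no count test applied to them. Coordinates are the files' own and equal those of assembly R64 for all 41 genes; ORF length is the span between them. Intervals are Wilson 95% intervals, and a count of 0 allows 3 counts. The measures were tested on simulated data with known shifts (Python 3.11.15, numpy 2.4.6, pandas 2.3.3, scipy 1.17.1).

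The members and lists were chosen with earlier results of these data known. All members are named. Values in each replicate are given by a rule for the shortest and longest member of each role, the 5 extremes of leading share, endpoint difference and inside-ORF share, and the 3 extremes of read number. Other members were added for completeness after their values were seen. The splits by gap to the neighbour, by ORF length and by the upstream gene's window were also made after the data were seen. The read minimum, the window, same-strand features and each replicate were varied.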

Additional observations from a re-analysis of the deposited data

How the results depend on the processing

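No paired analysis was possible because there is 1 group. The median endpoint of the splicing factor genes (109.8 nt), their median effective number of positions (7.64) and their median leading share (37.1%) moved by less than the SD between replicates with a minimum of 500 window reads and in positions 1 to 300. With no filter on reads, which adds the 4 genes of low depth, they were 111.1 nt, 7.04 and 39.2%. Without the 11 genes that have a same-strand feature in the window they were 113.7 nt, 8.29 and 34.6%, beside 129.6 nt, 8.64 and 33.4% over all ORFs treated alike. Leaving out each replicate in turn gave 110.0 to 111.8 nt, 7.09 to 7.52 positions and 36.5% to 39.4%. Under each of these settings the median endpoint and effective number lay below, and the leading share above, those of all ORFs. Without the genes with a same-strand feature, however, the leading share differed by 1.20 points, less than its SD of 2.04 between replicates. The count of genes with 1 most used position in both replicates (32 of 37) ran from 23 of 26 to 33 of 41. In positions 1 to 300 the mean endpoint of 7 genes moved by more than its SD, most for PRP11 (234.3 nt) and PRP28 (62.1 nt). Joining positions within 5 nt changed 32 of 74 counts of site groups. Depth limits 7 of the 37 genes, which had under 500 reads in a replicate, and ends beyond 400 nt were outside the measurement.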

Other observations

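The RNA components of the spliceosome are also among the annotated features. They are known to be mostly without a poly(A) tail. Each had fewer than 100 reads in the 400 nt after it in both replicates, below the minimum used for ORFs. The reason was not tested. LSR1, of U2 RNA, had 474 and 388 reads inside the gene and 90 and 81 in the 400 nt after it. SNR19, of U1, had 191 and 128 inside and 56 and 92 after it, with the most used position 1 nt after the annotated end in both replicates. SNR6, of U6, had 58 reads inside in both replicates and 63 and 95 after it, most used at 4 and 3 nt. SNR14, of U4, had 2 reads inside in both replicates and 20 and 11 after it. The 2 annotated forms of U5, SNR7-L and SNR7-S, end close to each other on the same strand, so their reads cannot be separated.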
